A study of Rattus norvegicus with 6 samples.

Results

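The AP-1 family of transcription factors was followed in rat tissue labelled as cerebellum after acute alcohol intoxication. Its 7 genes, Fos, Fosb, Fosl1, Fosl2, Jun, Junb and Jund, were found by gene name in the array files, and 7 of 7 were present. They were carried by 9 of the 26419 features tested, and the brightest feature whose name was not in doubt stood for each gene. The series compared 3 alcohol pools with 3 control pools on single-colour NimbleGen oligonucleotide arrays. A pool held 3 male rats of the Sprague-Dawley strain, aged 8 to 10 weeks, of 240 to 260 g and fasted for 12 hours. The alcohol group received 40% alcohol at 15 ml/kg by gavage, and the controls an equal volume of brine, called saline in the protocol. How long after gavage the rats were killed is not stated in the sources used here, which matters for genes as short-lived in expression as Fos. Levels are log2 RMA intensities, an intensity of 50 (5.64 on the log2 scale) served as the floor, and random-sequence control probes lay between 23.3 and 25.5. Array medians ran from 213.2 to 232.8, and precision is limited by there being 3 arrays per group. Because each pool averages its rats, p-values measure the spread between pools.

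AP-1 is a dimer of leucine zipper proteins that binds the TPA response element and, in some pairings, the cAMP response element. Fos proteins bind DNA only with a partner, usually a Jun protein, whereas Jun proteins can also pair with each other. Fos, Fosb and Junb are immediate early genes that neurons switch on rapidly and briefly after calcium entry or growth factor signals, and Fos is widely used as a mark of recently active neurons, in the cerebellum as elsewhere. Jund is expressed more steadily, and Fosl1 and Fosl2 commonly follow later than Fos.

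The 6 pools were of 2 kinds that did not follow treatment, and this bears on every value of the family. In alcohol pool 2 and control pool 1, the markers of cerebellar neurons were low, and these are called the marker-low pools below. Of the granule cell markers, 10 of 11 were at least 1 log2 unit lower there than in the other 4 pools, and their summed intensity was 5879 to 6728 against 109378 to 117293. Purkinje cell markers were lower for 10 of 10, with sums of 10996 to 13847 against 125965 to 136214. The defining markers Gabra6 (granule cells) and Pcp2 (Purkinje cells) lay under the floor in alcohol pool 2, at 5.20 and 5.27, and at 7.49 and 5.65 in control pool 1, against 13.97 to 14.18 and 13.42 to 13.60 elsewhere. These defining markers therefore go against the label of cerebellum in the marker-low pools. Brainstem, oligodendrocyte and microglia markers ran the opposite way. Brainstem markers summed to 5253 to 6678 in the marker-low pools and to 575 to 812 elsewhere, with 6 of 9 at least 1 log2 unit higher. Oligodendrocyte markers summed to 191477 to 195361 against 70055 to 102427, and 7 of 9 were higher by that margin. Microglia markers, with 8 of 8 higher, summed to 8489 to 10357 against 2983 to 4340. The astrocyte and Bergmann glia list went both ways, with 2 of 8 genes at least 1 log2 unit higher (Gfap 1.22, Slc1a2 1.12), 2 lower (Gdf10 -5.33, Slc1a3 -1.13) and a median of 0.55. Median differences were 0.79 for endothelium and pericytes, 0.29 for blood, -0.22 for forebrain and -0.95 for choroid plexus, where 4 of 8 genes were lower by that margin and 0 higher. Choroid plexus markers also summed to 16863 in alcohol pool 1 against 2161 to 2686 in the other 5. Fewer cells of a type and less RNA per cell cannot be told apart in such pools, and the part of these cell types in the results below was not tested.

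Promoter sequences show which response elements lie close to the start of these genes. The 250 bases before the RefSeq start (GRCr8) are shown for Junb, which was higher in the marker-low pools, for Fosl1, which was lower, and for Jund, which overlapped between the kinds of pool. The table used here matched 5 of the 7 genes. Capitals mark matches, on either strand, to the cAMP response element TGACGTCA, its core TGACG, which it contains on each strand, the CCAAT box and the TATA box TATAAA.
Junb, chr19:40080876-40081125, plus strand: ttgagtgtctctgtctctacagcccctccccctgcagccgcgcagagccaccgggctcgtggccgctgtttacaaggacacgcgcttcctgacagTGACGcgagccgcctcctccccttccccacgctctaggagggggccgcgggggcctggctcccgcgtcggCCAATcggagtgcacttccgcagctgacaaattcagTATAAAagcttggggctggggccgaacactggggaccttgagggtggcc
Fosl1, chr1:212183635-212183884, plus strand: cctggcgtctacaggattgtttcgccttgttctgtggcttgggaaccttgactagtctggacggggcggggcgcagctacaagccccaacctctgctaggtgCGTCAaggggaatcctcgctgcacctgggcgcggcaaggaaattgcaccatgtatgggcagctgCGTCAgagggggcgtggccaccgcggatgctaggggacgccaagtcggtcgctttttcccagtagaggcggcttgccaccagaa
Jund, chr16:18769772-18770021, minus strand: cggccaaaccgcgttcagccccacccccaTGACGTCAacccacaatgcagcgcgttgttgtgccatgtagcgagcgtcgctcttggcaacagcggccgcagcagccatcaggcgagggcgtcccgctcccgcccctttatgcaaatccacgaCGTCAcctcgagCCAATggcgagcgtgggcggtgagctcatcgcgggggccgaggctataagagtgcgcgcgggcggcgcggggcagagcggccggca

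Jund was the 1 of these 3 genes with the full cAMP response element, which 1.59% of 33469 rat promoters of this length hold. The core occurred 1 time in Junb, 2 times in Fosl1 and 3 times in Jund. It had 0 matches in the windows of Fosb and Fosl2, which are not shown. The Fosb window lay inside the span that RefSeq lists for the gene, so its 0 does not describe the bases before that start. As searched, 3 of the 5 matched genes held the core, beside 18.2% of promoters. The CCAAT box, found in Junb and Jund, occurs in 34.0% of promoters, and the TATA box of Junb in 12.9%. The TPA response element, searched as TGANTCA, and the CArG box, bound by serum response factor, had no match in these 3 windows and are held by 6.34% and 1.5% of promoters.

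Fos, the founding member of the family, had the widest range of the 7, 3.23 log2 units. Its level was 7.08, 9.90 and 6.66 in alcohol pools 1, 2 and 3 and 9.54, 7.24 and 8.31 in control pools 1, 2 and 3. The highest values were those of the marker-low pools, 1 in each group, and the groups overlapped. The alcohol mean was 7.88 ± 1.76 (SD, n = 3) and the control mean 8.36 ± 1.15 (SD, n = 3). In limma the difference of -0.49 (SE 0.98, adjusted p = 1.00) had a 95% interval from -2.86 to 1.89, which leaves room for a large change in both directions. Among the 4 other pools both alcohol pools were below both control pools, and the difference was -0.90 (SE 0.41, adjusted p = 0.667 in limma). Between the marker-low pools it was 0.35 in the opposite direction, with 1 pool on each side and no test.

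Fosb encodes a Fos protein known for a stable truncated form that builds up with repeated stimulation. It was dim, at 5.91, 6.47 and 5.93 in alcohol pools 1 to 3 and at 6.34, 5.44 and 6.18 in control pools 1 to 3. Control pool 2 lay under the floor, and both marker-low pools lay above the other 4. The difference between groups was 0.11 (SE 0.31, 95% interval -0.63 to 0.85, adjusted p = 1.00 in limma).

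A further feature, NM_001013146, is called Fosb in the files, whereas RefSeq now lists that accession under Fosl2. It was kept apart from both genes, except where a gene's features were averaged as an alternative, in which it counted as Fosl2. This feature was at 9.11, 8.90 and 9.11 in alcohol pools and at 8.84, 8.70 and 9.02 in control pools, a difference of 0.19 (SE 0.18, adjusted p = 1.00 in limma). By the brightest-feature rule it would stand for Fosb under the files' name. Under the RefSeq name it would stand for Fosl2, with a mean of 8.94 against 7.88 for the Fosl2 feature used. The marker-low pools of NM_001013146 lay among the others, unlike those of the Fosb feature.

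Fosl1 encodes Fra-1, a Fos protein that lacks the strong activation domain of Fos. Alcohol pools 1 to 3 had levels of 7.92, 6.11 and 6.98, and control pools 1 to 3 levels of 6.75, 8.08 and 7.07. The order was the reverse of that of Fos in one respect, as both marker-low pools were below the other 4. The difference between groups was -0.30 (SE 0.55, 95% interval -1.62 to 1.02, adjusted p = 1.00 in limma). Fosl2, which encodes the related Fra-2, was steadier, at 8.06, 7.85 and 7.99 in alcohol pools and at 7.58, 7.95 and 7.84 in control pools. Its groups overlapped, with a difference of 0.18 (SE 0.18, 95% interval -0.26 to 0.61, adjusted p = 1.00 in limma).

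Jun, the main activating partner of Fos and the substrate after which the Jun N-terminal kinases are named, was at 10.98, 10.43 and 10.67 in alcohol pools 1 to 3. In control pools 1 to 3 it was at 10.31, 11.08 and 10.56. The 2 lowest values were those of the marker-low pools, and the groups had almost the same mean, 10.69 ± 0.27 for alcohol against a control mean of 10.65 ± 0.39 (SD, n = 3). The 95% interval of their difference of 0.04 (SE 0.27, adjusted p = 1.00 in limma) ran from -0.60 to 0.69.

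Junb encodes a Jun protein that is a weaker activator than Jun and can oppose it. It was at 9.59, 10.45 and 9.45 in alcohol pools 1 to 3 and at 9.96, 9.44 and 9.06 in control pools 1 to 3. The marker-low pools were the highest of their groups, and among the other 4 both alcohol pools were above both control pools. The difference was 0.34 (SE 0.36, 95% interval -0.52 to 1.21, adjusted p = 1.00 in limma). Within the 4 pools it was 0.27 (SE 0.20) and between the marker-low pools 0.50.

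Jund, which is often described as a brake on cell growth, showed the smallest spread of the Jun genes. It was at 9.51, 9.47 and 9.25 in alcohol pools and at 9.71, 9.64 and 9.28 in control pools, and the groups overlapped. The difference was -0.14 (SE 0.20, 95% interval -0.61 to 0.34, adjusted p = 1.00 in limma). Its other feature was at 9.28 to 9.36 in alcohol pools and at 10.00, 9.56 and 9.21 in control pools, with a difference of -0.26 (SE 0.24). Both features thus had a lower mean with alcohol, by less than the spread between control pools.

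**Figure D1:**
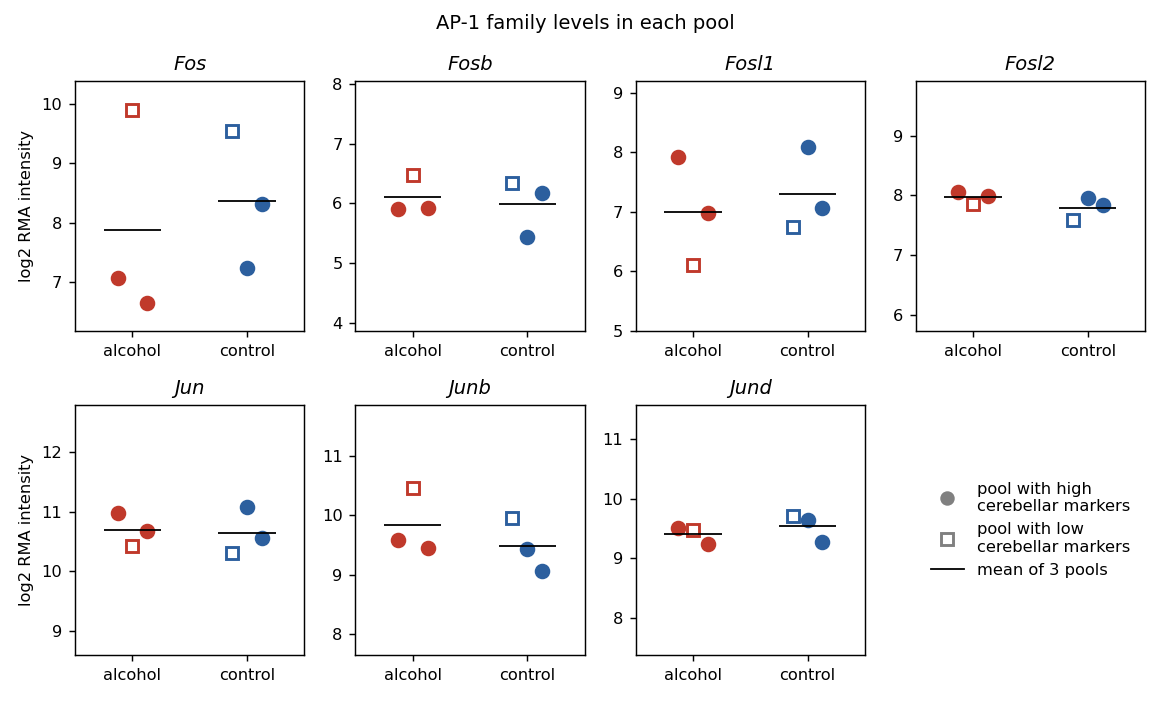
Log2 RMA intensity of the 7 AP-1 genes in the 3 alcohol (red) and 3 control (blue) pools, with a line at each group mean and open squares for the 2 marker-low pools; each panel spans the same number of log2 units around its own gene. The squares of Fos lie at 9.90 and 9.54, above the 6.66 to 8.31 of the other 4 pools, while those of Fosl1 and Jun lie below the rest.

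The comparison of alcohol with control asks whether the family responded to intoxication. In limma, 0 of 7 members were called at an adjusted p under 0.05, as were 0 of all 26419 features (0.0%), and 0 of 7 members had an unadjusted p under 0.05, against 3.9% of features. The alcohol pools lay all above the control pools in 0 of 7 members (4.39% of features) and all below in 0 of 7 (4.36%), so that every member overlapped, beside 8.76% of features without overlap. The alcohol mean was higher for Fosb, Fosl2, Jun and Junb and lower for Fos, Fosl1 and Jund. The median difference of the 7 was 0.04, beside -0.02 for all features. With 3 pools on each side an exact two-sided permutation test reaches 0.10 at the lowest, and it was not used for single genes.

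Because a marker-low pool stood in each group, a term for these pools left the differences as they were and narrowed their errors. For Fos the SE went from 0.98 to 0.39, and the 95% interval was then -1.46 to 0.48. Junb had the lowest p of the 7, with 0.34 (SE 0.16, 95% interval -0.04 to 0.73, adjusted p = 0.552 in limma). Of the 7 members 0 had an adjusted p under 0.05 with the term, against 0.0% of features, and 0 had an unadjusted p under 0.05, against 9.47%. The remaining adjusted p values lay between 0.656 for Fosl2 and 0.953 for Jun in limma. In the 4 pools with high cerebellar markers, 0 of 7 members had an adjusted p under 0.05 (0.0% of features) or an unadjusted p under 0.05 (8.03%) in limma. Both alcohol pools lay above both control pools there in Fosl2 and Junb, 2 of 7 against 17.7% of features, and below them in Fos, 1 of 7 against 22.0%. Fosl2 and Junb were also higher with alcohol between the marker-low pools, which makes 2 of 7 higher in both kinds of pool (10.8% of features), and 0 of 7 were lower in both (14.4%). With the feature NM_001013146 in the place of Fosb, the count higher in the 4 pools and the count higher in both kinds of pool would each be 3 of 7.

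**Figure D2:**
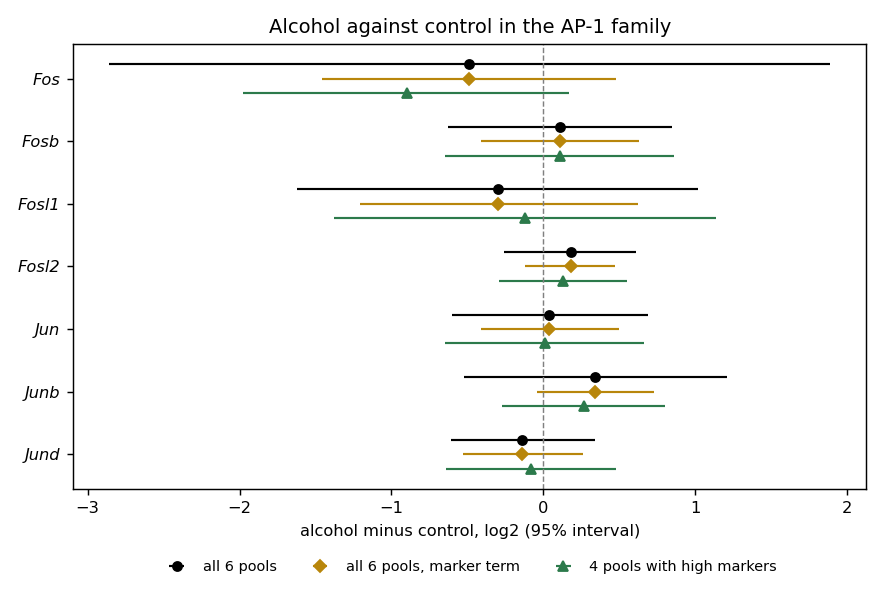
Difference between alcohol and control in log2 units with 95% intervals for the 7 AP-1 genes, from limma on all 6 pools (black), with a term for the marker-low pools (ochre) and on the 4 pools with high cerebellar markers (green). Every interval includes 0; that of Fos runs from -2.86 to 1.89 in all 6 pools and from -1.46 to 0.48 with the term.

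Fos, Fosb and Junb were higher, and Fosl1 and Jun lower, in both marker-low pools than in any of the other 4. As the labels do not give these kinds of pool, their values are described without a test. Fos had a mean of 9.72 in the marker-low pools and 7.32 in the other 4, a difference of 2.40 or 5.27-fold. Junb was higher there by 0.82 and Fosb by 0.55, whereas Fosl1 was lower by 1.08 (a difference of -1.08) and Jun by 0.45 (-0.45). Fosl2 (-0.24) and Jund (0.17) overlapped between the kinds. Both marker-low pools thus lay above the other 4 in 3 of 7 members, against 23.4% of features, and below them in 2 of 7, against 25.1%. The first count rests in part on the dim Fosb feature, and would be 2 of 7 with NM_001013146 in its place. A difference of at least 1 log2 unit was seen upward in 1 of 7 (9.29% of features) and downward in 1 of 7 (6.82%). As far up as Fos, or farther, lay 1.46% of all features, and as far down as Fosl1 5.98%. The higher levels of Fos, Fosb and Junb stood in the pools with higher brainstem, oligodendrocyte and microglia marker sums given above. Summed intensities of the astrocyte and Bergmann glia, endothelium and pericyte, forebrain and blood lists were also higher there. Those of the granule cell, Purkinje cell and choroid plexus lists were lower. Which cell types the AP-1 levels followed was not tested.

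**Figure D3:**
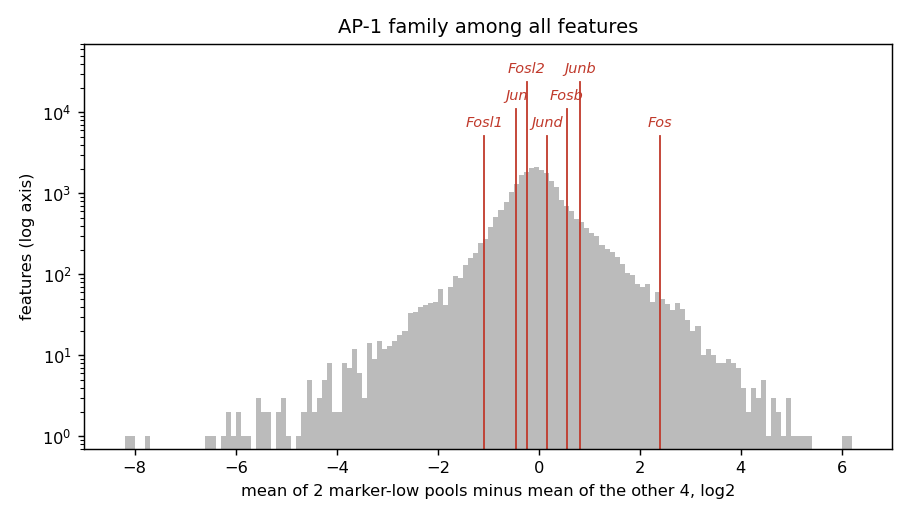
Histogram of all 26419 features by the difference between the mean of the 2 marker-low pools and the mean of the other 4, in log2 units, with a log count axis; red lines mark the 7 AP-1 genes. Fos lies at 2.40 in the upper flank and Fosl1 at -1.08 in the lower one, with the other 5 between -0.45 and 0.82.

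Genes with the most similar profile over the 6 pools were sought for the members above the floor on all arrays whose SD exceeded 0.3, among 13430 features also above the floor, by the root mean square distance of centred log2 values. The closest to Fos were Ass1, an enzyme of arginine synthesis, at 0.21, Cdh9, a cadherin, at 0.26 and the small heat shock protein gene Hspb1 at 0.29. For Junb they were Gpd1, a glycerol phosphate dehydrogenase, at 0.09 and Stmn4 and Lrig1 at 0.10 each. Jun was matched most closely by Coro7, Myh10 and Zc3h7b at 0.06 each. Fosl1 had C1h19orf47, Dennd2b and the insulin receptor substrate gene Irs1 at 0.21 each. Other AP-1 members were not among these closest genes. Fosb, under the floor in control pool 2, was not a candidate, and distances between members are not given here.

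The genes around AP-1 were taken from lists of partners, upstream kinases, promoter-binding factors, regulators of turnover, targets and other rapid response genes. Of 143 listed names, 139 were measured. Cyr61 and Ccn1, both listed, are names of the same gene, which was measured as Ccn1. Limma called 0 of the 139 for treatment, against 0.0% of features, and 3 of the 139 (2.16%) had an unadjusted p under 0.05, against 3.9% of features. The groups did not overlap in 13 of the 139 (9.35%), against 8.76% of features. With the marker term it called 0 as well, with a lowest adjusted p of 0.420. The 17 other leucine zipper partners had a median difference of -0.02, and 0 had an unadjusted p under 0.05. Ddit3, an endoplasmic reticulum stress factor, differed by -0.33 (SE 0.16), the small Maf gene Mafg by -0.47 (SE 0.27) and the AP-1 repressor Jdp2 by -0.21 (SE 0.23).

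Upstream of AP-1, the 15 genes of the Jun N-terminal kinase pathway had a median of -0.02 and the 21 measured genes of the ERK and p38 pathways one of -0.11. In both lists 0 genes had an unadjusted p under 0.05 in limma. The phosphatase genes Dusp16 and Dusp10 differed by -0.46 (SE 0.23) and -0.28 (SE 0.23), and the kinase gene Map3k7 by 0.24 (SE 0.16). Map2k6, which activates p38, differed by 0.28 (SE 0.18), Araf by -0.21 (SE 0.16) and the ERK phosphatase gene Dusp6 by -0.32 (SE 0.33).

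Of the 17 measured factors that act on the Fos promoter, Crebbp differed most. It encodes a histone acetyltransferase that serves as coactivator for CREB and for AP-1. Its level was 9.50, 7.51 and 7.83 in alcohol pools 1 to 3 and 9.61, 9.81 and 9.97 in control pools 1 to 3, so that the alcohol pools all lay below. The difference of -1.52 (SE 0.52) had an unadjusted p of 0.0254 and an adjusted p of 1.00 in limma, and 0.454 with the marker term. Mef2c differed by -0.28 (SE 0.23) and Mrtfa by 0.14 (SE 0.20), and the median of the list was -0.06.

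Regulators of AP-1 turnover and cofactors (14 measured) had a median of 0.01. Gsk3b, a kinase that marks Jun for degradation, differed by -0.32 (SE 0.18) and Smarcd1 by -0.17 (SE 0.17). The 25 genes listed as AP-1 targets also had a median of 0.01, and 0 had an unadjusted p under 0.05. Sphk1 differed by 0.57 (SE 0.51), Cdk5 by -0.14 (SE 0.15) and Th, the tyrosine hydroxylase gene, by -1.49 (SE 1.49). Its level in the marker-low pools was 8.18 with alcohol and 11.15 in the control, and 5.21 to 6.37 in the other 4, and alcohol pool 1 lay under the floor.

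Among 31 other rapid response genes the median was 0.04. Sik1, a salt-inducible kinase induced by cAMP, was at 7.74, 8.37 and 7.80 in alcohol pools and at 7.33, 6.75 and 7.23 in control pools. Nfkbia, which encodes an NF-kappaB inhibitor, differed by 0.83 (SE 0.24) and Sik1 by 0.86 (SE 0.26). Both were among the 13 genes without overlap, as was Crebbp, and both had an unadjusted p under 0.05, with an adjusted p of 1.00 in limma. Nr4a3, an orphan nuclear receptor, differed by -0.63 (SE 0.29). Whether Sik1 and Nfkbia differed from the AP-1 genes in their response was not tested.

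**Figure D4:**
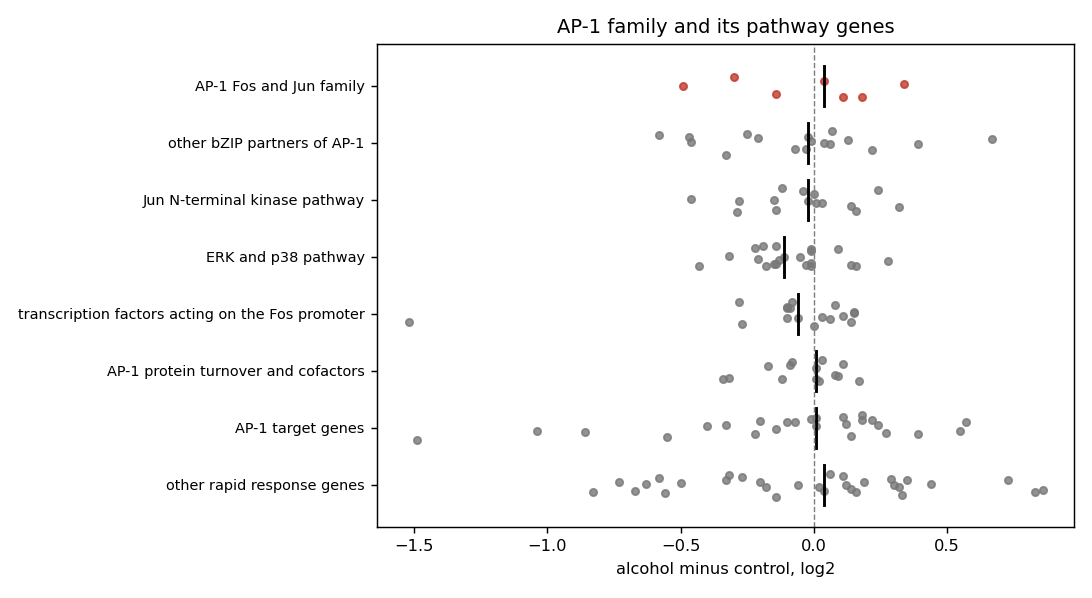
Difference between alcohol and control in log2 units for each gene of the AP-1 family (red) and of 7 lists around it (grey), with a black bar at the median of each list; points are spread vertically for visibility. The medians lie between -0.11 and 0.04, and Crebbp at -1.52 and Th at -1.49 are the lowest points.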

How the data were processed

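RNA from 6 pools was hybridised to 1 array each. Each array has its own deposited file of linear intensity values, which the authors made with RMA, per the submitters' processing notes, with no version named; whether the arrays were equalised together is not stated in the sources used here. A deposited value table repeats these values for 18107 features, those at 50 or more on 3 or more arrays. The log2 of each value was taken with no other scaling, and 1 random-sequence control entry was left out. Names came from RefSeq genes of GRCr8 by gene identifier, then by accession, then from the files. Alcohol was set against control in R 4.3.3 by lmFit and eBayes of limma 3.58.1, two-sided and with no covariate. P-values were adjusted by Benjamini-Hochberg across the 26419 features, and 0.05 was the limit for a call. A check on simulated data asked only that the fit return planted differences on average. It set no condition on how many were called, so it does not bear on the power to call a change. Python 3.11.15, pandas 2.3.3, numpy 2.4.6 and matplotlib 3.10.9 served for tables and plots.

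The members, the gene lists, the marker lists and the marker term were chosen with earlier results of these data known. In each pathway list the 3 genes with the smallest p and a mean intensity above 50 were named, together with all members and the 3 closest profiles of each variable member; 1 gene that this rule selects is not reported here. The median difference between alcohol and control of the 10 marker lists (granule cell, Purkinje cell, oligodendrocyte, astrocyte and Bergmann glia, microglia, endothelium and pericyte, choroid plexus, brainstem, forebrain and blood) lay between -0.13 for brainstem and 0.28 for choroid plexus. Probe sequences were not used here, so signal shared between family members was not examined. The alternatives were the value table, median centring, quantile normalization, a filter on dim features, eBayes options, array weights, averaging a gene's features, a replicate block, leaving out each pool, the marker term, the 4 other pools, a threshold of 0.10 and, added after seeing the files, the feature with 2 names as Fosb or as Fosl2.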

Additional observations from a re-analysis of the deposited data

How the results depend on the processing

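Under the alternatives 0 of 129 values passed the threshold in limma (adjusted p from 0.552 to 1.00), 120 kept their direction and 9 turned it. These are values of the members and of the feature with 2 names. The value table, dim filter, eBayes options, replicate block and marker term leave each difference unchanged by design. So does averaging a gene's features for Fos, Fosb, Fosl1, Jun and Junb, each carried by 1 feature. Directions kept under these say nothing about stability. Fosl1 turned to 0.21 with array weights, and the other 8 turns came from leaving out 1 pool. The differences then ranged from -1.49 to 0.12 for Fos, -0.16 to 0.29 for Fosb, -0.75 to 0.15 for Fosl1, -0.13 to 0.26 for Jun, 0.07 to 0.26 for Fosl2, 0.03 to 0.58 for Junb, -0.27 to -0.05 for Jund and 0.11 to 0.27 for the feature with 2 names. Fos was at 0.12 without alcohol pool 3 and 0.10 without control pool 1, Fosb at -0.07 without alcohol pool 2 and -0.16 without control pool 2. Fosl1 was at 0.15 without alcohol pool 2 and 0.09 without control pool 2, and Jun at -0.10 without alcohol pool 1 and -0.13 without control pool 1. Leaving out a marker-low pool sets the kinds of pool against 1 group, and the cause of the other turns was not tested. Members and pathway genes called stayed at 0 under every alternative. Features with an unadjusted p under 0.05 in limma numbered 1030, and 503 of the 18107 in the value table, 2893 with array weights, 2502 with the marker term, 2121 in 4 pools and 614 to 1342 without 1 pool. With the replicate number as a block, Fos differed by -0.49 (SE 1.11) and 647 features had such a p. Deviations of same-numbered pools from their group means had r = -0.63, -0.68 and 0.60. The marker-low pools carry different numbers in the 2 groups and weigh on these values. Whether the numbers pair the samples therefore cannot be told from them. Of the features used for the members, that of Fosb is the most limited by signal over background. The feature with 2 names, which the files call Fosb, was above the floor on all 6 arrays.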

Other observations

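Several regulators around AP-1 differed between the kinds of pool. They are described without a test and were named after their values were seen. Of the factors acting on the Fos promoter, 6 of 17 were at least 1 log2 unit lower in the marker-low pools and 0 were higher, beside 6.82% and 9.29% of all features. They include the CREB coactivator gene Crtc1 (mean 8.88 against 10.88 to 11.22 in the other 4 pools) and the ternary complex factor gene Elk1 (10.07 against 11.27 to 11.92). In the Jun N-terminal kinase list 4 of 15 were lower by that margin and 0 higher, with the stress kinase gene Map3k5 at 7.17 against 10.90 to 11.37. The ERK and p38 list was mixed, with 3 of 21 lower, such as the ERK phosphatase gene Dusp5 at 7.84 against 11.70 to 12.43, and 2 higher (Nras by 1.01 and Rps6ka2 by 1.70).

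Of the AP-1 target list, 9 of 25 were at least 1 log2 unit higher in the marker-low pools and 0 were lower. The shares of all features were 9.29% higher and 6.82% lower. The higher genes include Spp1, the osteopontin gene, at a mean of 13.03 against 6.83 to 9.36, and Vgf, a neuropeptide precursor, at 10.03 against 6.48 to 7.34. Tac1, the substance P precursor, was uneven between the marker-low pools, at 7.03 with alcohol and 9.44 in the control. In the other pools it lay under the floor, at 4.78 to 5.29. The rapid response genes were mixed, with 3 of 31 higher and 3 lower by that margin. Sgk1 (13.86 against 12.18 to 12.66) and Ccn2 (9.25 against 6.29 to 7.98) were higher, and Klf10 (7.51 against 8.85 to 9.09), Nr4a2 (6.82 against 7.88 to 9.13) and Gadd45g (8.49 against 9.85 to 10.13) lower. Gfap of the target list is also on the astrocyte marker list, and the levels of marker lists that moved with these pools are given with the pools' description.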
